A study of Mus musculus with 15 samples.

Results

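The MHC class I pathway and the immunoproteasome were followed through 10 genes in microvessels isolated from mouse brain: H2-K1, H2-D1, B2m, Tap1, Tap2, Tapbp, Nlrc5, Psmb8, Psmb9 and Psmb10. They were chosen by gene symbol, and each matched 1 of the 27174 genes in the deposited table. All 10 passed the filter on low values, which kept 19668 genes. The 15 libraries form 5 groups of 3, and each library is a pool of 3 adult wild-type mice, given in the labels as WT BL6/57. The sham group is healthy mice after a sham operation. The contralateral group is the hemisphere opposite the tumour in mice given control IgG, and the untreated tumour group is the tumour-bearing region after the same IgG. Dual therapy is the tumour region of mice given Aflibercept-AMG386. Triple therapy is the tumour region of mice given Aflibercept-AMG386 and anti-PD1. Aflibercept is a decoy receptor for VEGF, AMG386 a peptibody that neutralises angiopoietins, and anti-PD1 an antibody against the inhibitory T cell receptor PD-1. All tumour-bearing mice were sampled 21 days after tumour cells were transplanted. The sources used here do not name the tumour line or the day on which sham mice were sampled.

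MHC class I molecules show pieces of a cell's own proteins to CD8 T cells and are read by receptors of natural killer (NK) cells. Proteasomes cut the proteins, the TAP transporter carries the peptides into the endoplasmic reticulum, tapasin and its partners help load them, and a heavy chain with beta-2-microglobulin carries each peptide to the surface. Under interferon, 3 catalytic subunits of the proteasome are replaced by inducible ones, which gives the immunoproteasome, and the transcriptional coactivator NLRC5 acts at the promoters of class I genes. Endothelial cells of the brain are among the cell types that make this pathway.

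Proximal promoters of the heavy chain genes and of B2m are shown because these genes are textbook examples of class I regulatory elements. The sequences are from RefSeq (GRCm38.p6), whose promoter table matched 8 of the 10 genes, all but Tap2 and Nlrc5. Capitals mark matches to a kappaB form (GGG and TTCCC with 2 bases between) and to 2 forms of the interferon-stimulated response element, ISRE (GAAA and GAAA, or in the shorter form GAA and GAAA, with 2 bases between), on either strand. The H2-K1 sequence is chr17:34000348-34000547 on the minus strand, from 200 to 1 bases before the start. The B2m sequence is chr2:122147487-122147676 on the plus strand, from 200 to 11 bases before the start.
H2-K1: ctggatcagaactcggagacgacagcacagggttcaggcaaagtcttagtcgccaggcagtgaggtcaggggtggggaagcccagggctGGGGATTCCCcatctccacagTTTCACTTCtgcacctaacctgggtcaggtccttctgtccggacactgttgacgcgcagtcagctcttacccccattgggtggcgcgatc
B2m: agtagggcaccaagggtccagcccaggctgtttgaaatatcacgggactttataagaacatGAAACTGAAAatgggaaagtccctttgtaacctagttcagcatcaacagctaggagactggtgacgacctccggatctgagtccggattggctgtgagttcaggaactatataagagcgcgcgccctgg

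Both classical heavy chain genes hold the kappaB form and the shorter ISRE form within 30 bases. The H2-K1 segment is chr17:34000429-34000458 on the minus strand, and the H2-D1 segment is chr17:35262923-35262952 on the plus strand. The H2-D1 segment lies before the RefSeq start but inside the gene span of the deposited table (35262730 to 35267499).
H2-K1: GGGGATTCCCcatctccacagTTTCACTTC
H2-D1: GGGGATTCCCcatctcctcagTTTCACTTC
The segments differ by 1 substitution, A18T, counted from 1 at the 5′ end with the H2-K1 base first. The longest run of identical bases that both promoters share is 47 bases and ends within these segments, before the substitution. Over the 250 bases before the start, 1.54% of 32817 promoters hold the kappaB form, 2.97% the longer ISRE form and 6.31% the shorter one. The longer form was found in B2m, and the shorter form was added after the longer one had matched B2m only. Of the 8 promoters, 6 hold the Y box letters ATTGG on either strand, as do 33.83% of all promoters. The matches of Tap1 and Psmb9 are the same 5 bases, read from opposite strands, so the 6 are not 6 separate sites. The X2 box letters TGACGC are in H2-K1 and H2-D1 and in 6.11% of all promoters. The interferon-gamma activated site TTCNNNGAA is in Psmb8 and in 7.01% of all promoters. Within the promoter of a single gene, none of these matches overlap. The Psmb8 match, the Y box letters in Psmb9 and all H2-D1 matches lie inside the gene spans of the deposited table. A match is a description of the sequence and no test of binding.

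Values are the authors' normalised scores, with library totals of 11134670 to 15799111. Estimated depth ran from 6366032 to 18323670 reads, and the lowest estimate for any of the 10 genes in a library was 49 reads, for Psmb9. Mitochondrial ribosomal RNA took 21.5% to 33.2% of the score in untreated tumour, highest in replicate 2, and 9.6% to 17.4% in the other groups. The labelled tissue was checked against 15 endothelial markers, all of them detected in every group. Their summed score was 180607 to 189421 in sham, 193305 to 225664 in contralateral, 105371 to 154811 in untreated tumour, 161662 to 213337 after dual and 157672 to 201815 after triple therapy. In these bulk samples fewer cells of a type and less RNA per cell cannot be told apart.

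In untreated tumour, all 10 genes were higher than in the opposite hemisphere and higher than in sham, with no overlap between groups. The share of all genes without overlap was not counted, in these or in later comparisons. Log2 fold changes against contralateral tissue ran from 0.75 for Tapbp to 4.37 for Nlrc5, and against sham from 0.81 to 4.41 for the same 2 genes. Every gene passed the limma test (adjusted p below 0.05 over all genes tested) in both comparisons, among a background in which 21.1% of all genes tested rose against contralateral tissue and 23.3% against sham. In the F-test among the 5 groups all 10 differed, as did 43.5% of all genes. The median of the 10 genes was 1.36 on the log2 scale, and that of all genes was 0.01. Both comparisons use the same untreated tumour libraries. Marker levels moved with these changes. Of 6 pan-leukocyte markers 6 rose, and their summed score was 1148 to 1231 in contralateral and 4146 to 6024 in untreated tumour. Of 16 T and NK cell markers 14 rose, with sums of 100 to 202 and 1532 to 1705, and of 12 monocyte and macrophage markers 10 rose and 1 fell, with sums of 3700 to 4012 and 6041 to 7402. All 10 proliferation markers rose, from sums of 159 to 293 to sums of 6204 to 13801. Neutrophil markers rose for 4 of 4 tested and B cell markers for 4 of 6. Endothelial markers fell for 8 of 15 and pericyte markers for 8 of 8, where 21.4% of all genes fell. Astrocyte markers fell for 4 of 7 and oligodendrocyte markers for 1 of 7. Neuron markers fell for 8 of 8, from sums of 9306 to 11562 to sums of 1603 to 3278, microglia markers rose for 4 and fell for 3 of 10, and dendritic cell markers rose for 5 and fell for 1 of 8. The leukocyte gene Ptprc, which encodes CD45, was present in contralateral tissue too, at 275, 253 and 241, against 1451, 1705 and 2442 in untreated tumour. The part of these cell types and of proliferation in the changes below was not tested.

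**Figure D1:**
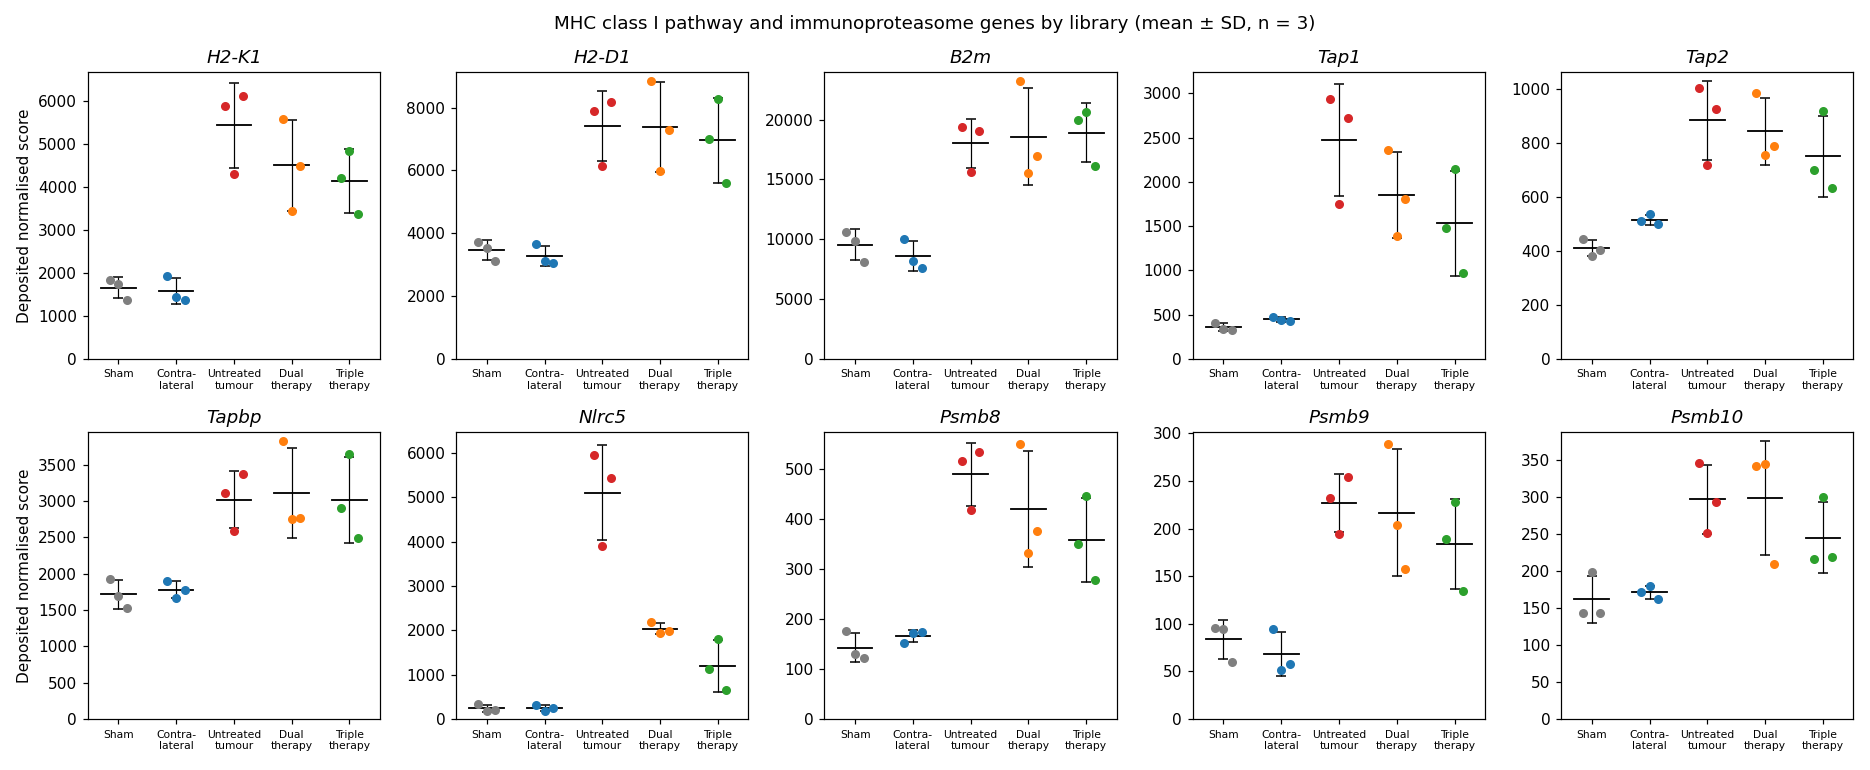
Deposited normalised score (vertical axes, linear from 0) of each of the 10 genes in the 15 libraries, by group; points are libraries of 3 pooled mice, long bars the group means and whiskers the SD (n = 3). All 3 tumour-region groups lie above sham and contralateral tissue for every gene, and Nlrc5 falls from 5096 in untreated tumour to 2036 after dual and 1195 after triple therapy.

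The heavy chain gene H2-K1 (chromosome 17, 33996017 to 34000333, GRCm38) had scores of 1840, 1740 and 1376 in sham and 1933, 1447 and 1368 in contralateral tissue. In the untreated tumour its scores were 5889, 4314 and 6128. The lowest tumour library was above the highest control library, and the log2 fold change against contralateral tissue was 1.78 ± 0.19 (SE; limma adjusted p = 7.19e-07). H2-D1 (chromosome 17, 35262730 to 35267499), the other classical heavy chain gene here, had scores of 3647, 3127 and 3045 in contralateral tissue and 7902, 6141 and 8181 in untreated tumour, a log2 fold change of 1.17 ± 0.16 (limma adjusted p = 9.89e-06). In sham it was at 3732, 3524 and 3118, within the range of the contralateral libraries apart from its highest value. B2m (chromosome 2, 122147686 to 122153083) encodes beta-2-microglobulin, the light chain of every class I molecule. Its scores were 9979, 8209 and 7601 in contralateral tissue and 19343, 15653 and 19060 in untreated tumour (log2 fold change 1.07 ± 0.16, limma adjusted p = 3.2e-05). Sham libraries had 10632, 9868 and 8118. Class I genes resemble each other in sequence: 9.63% of the 50-base windows of H2-K1 transcripts and 12.77% of those of H2-D1 also occur in other genes, H2-Q10 and H2-Q1 foremost, so part of their reads could have been counted elsewhere or not at all. No window of B2m or Nlrc5 is shared.

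Among the genes of peptide transport and loading, Tap1 had the largest difference. Tap1 (chromosome 17, 34187553 to 34197225) encodes 1 chain of the transporter, with scores of 406, 339 and 329 in sham, 473, 440 and 425 in contralateral tissue and 2937, 1749 and 2724 in untreated tumour. The difference between tumour and contralateral tissue was 2.43 ± 0.24 on the log2 scale (limma adjusted p = 3.12e-07). Tap2 (chromosome 17, 34203527 to 34216321), the other chain, had scores of 444, 383 and 405 in sham, 510, 536 and 500 in contralateral tissue and 1006, 720 and 928 in untreated tumour. Its log2 fold change was 0.77 ± 0.15 (limma adjusted p = 0.000448). Per kilobase of exon, the levels of the 2 chains were in another order in the tumour. Tap1 was at 81.4 ± 4.5 (SD, n = 3) and Tap2 at 136.3 ± 4.9 in contralateral tissue, against 451.1 ± 115.7 and 234.0 ± 39.1 in untreated tumour. The lengths used pool the exons of all transcripts of a gene, 5476 bases for Tap1 and 3781 for Tap2. Levels per kilobase depend on these lengths. Tapbp (chromosome 17, 33919332 to 33929288), which encodes tapasin, had scores of 1925, 1686 and 1531 in sham, 1904, 1670 and 1769 in contralateral tissue and 3102, 2586 and 3366 in untreated tumour (log2 fold change 0.75 ± 0.15, limma adjusted p = 0.000548).

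Nlrc5 (chromosome 8, 94434391 to 94527272), the coactivator gene, had scores of 336, 184 and 211 in sham and 309, 190 and 240 in contralateral tissue. In untreated tumour it reached 5955, 3900 and 5434. The mean was 20.7 times that of contralateral tissue on the fitted scale (log2 fold change 4.37 ± 0.28, limma adjusted p = 4.15e-09). Ranked by the F-test among the 5 groups, it was 27th of the 19668 genes tested. Per kilobase of exon, Nlrc5 was the second lowest of the 10 genes in sham (28.7 ± 9.5, above Psmb9 at 22.9 ± 5.6) and in untreated tumour it was at 600.1 ± 125.8, above Tap1 and below Tapbp at 831.9 ± 109.4. B2m was highest per kilobase in every group, from 9996 in contralateral tissue to 22002 after triple therapy. The gene span of Nlrc5 overlaps by 713 bases that of a non-coding gene on the opposite strand, 9330175E14Rik. The mean score of 9330175E14Rik was 48.1 against 1764 for Nlrc5. How many of these bases are exonic in both genes was not computed. The sources used here do not say whether counting took account of strand.

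The 3 immunoproteasome subunits also rose. Psmb8 (chromosome 17, 34197790 to 34201454) had scores of 175, 130 and 121 in sham, 152, 171 and 173 in contralateral tissue and 516, 417 and 533 in untreated tumour, a log2 fold change against contralateral tissue of 1.55 ± 0.20 (limma adjusted p = 6.99e-06). Psmb9 (chromosome 17, 34181988 to 34187764) was the lowest of the 10, at 96, 95 and 60 in sham, 95, 52 and 58 in contralateral tissue and 232, 194 and 254 in untreated tumour (1.76 ± 0.27, limma adjusted p = 4.72e-05). Psmb10 (chromosome 8, 105935739 to 105938444) had 144, 199 and 143 in sham, 172, 180 and 162 in contralateral tissue and 346, 252 and 294 in untreated tumour (0.78 ± 0.20, limma adjusted p = 0.0043). Of the 3, Psmb10 thus had the smallest difference. The gene spans of Psmb9 and Tap1 overlap by 212 bases on opposite strands, so reads from that stretch may not have been assigned with certainty. Opposite-strand gene spans also overlap Psmb10 (Gm16156, 2706 bases), Tap2 (Gm15821, 3148 bases) and Tapbp (Gm19412, 958 bases). Mean scores of these 3 overlapping genes were 1.7, 12.2 and 1.1, against 235.1 for Psmb10, 681.3 for Tap2 and 2527.7 for Tapbp. The effect of these overlaps on the scores was not tested.

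Each inducible subunit takes the place of a constitutive one: Psmb8 that of Psmb5, Psmb9 that of Psmb6 and Psmb10 that of Psmb7. None of the 3 constitutive genes was called between untreated tumour and contralateral tissue, with log2 differences of 0.41 for Psmb5 (limma adjusted p = 0.227), 0.04 for Psmb6 (0.841) and 0.42 for Psmb7 (0.0599). The log2 ratio of Psmb9 to Psmb6 was -2.60, -3.55 and -3.28 in contralateral tissue and -1.51, -1.87 and -0.92 in untreated tumour. The ratio of Psmb8 to Psmb5 went from 1.45, 1.02 and 1.69 to 2.21, 2.28 and 3.08, and that of Psmb10 to Psmb7 from 0.32, 0.47 and 0.44 to 0.88, 0.52 and 0.89. All 3 ratios were higher in every tumour library than in any contralateral library. The differences of the means were 1.72, 1.14 and 0.36, each with p = 0.1 in a two-sided exact permutation test (adjusted p = 0.4 over 12 tests), the smallest p that 3 libraries against 3 can give. Of the 50-base windows of Psmb5, 54.07% also occur in other genes, so its level is uncertain. After treatment the ratios overlapped those of untreated tumour, with exact p from 0.3 to 1.0.

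**Figure D2:**
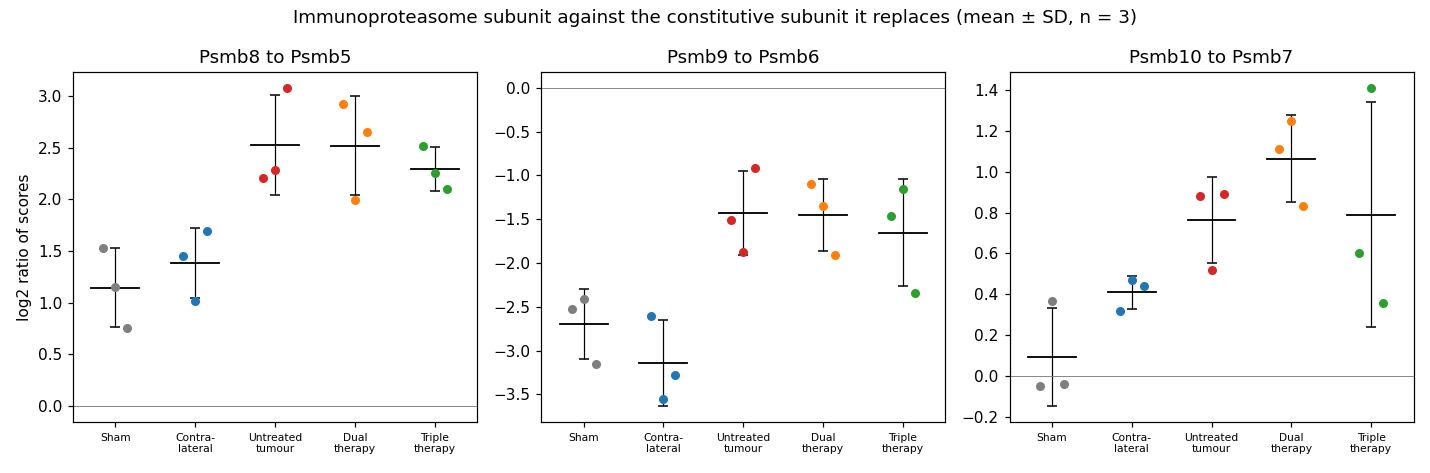
Log2 ratio of the score of each immunoproteasome subunit to that of the constitutive subunit it replaces (vertical axes), by group; points are libraries, long bars means and whiskers SD (n = 3). In all 3 panels the untreated tumour libraries lie above the contralateral ones, and both treated groups overlap untreated tumour.

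In tissue away from the tumour no difference was called. Between contralateral and sham tissue, 0 of the 10 genes passed the limma test, in a comparison in which 0.432% of all genes did. Log2 differences ran from -0.31 for Psmb9 to 0.33 for Tap2, and 1 gene, Tap2, had an unadjusted p below 0.05 (limma adjusted p = 0.393). Tap1 and Tap2 were higher in each contralateral library than in any sham library, and the share of all genes so separated was not counted. For Nlrc5 the difference was 0.04, with a 95% interval from -0.55 to 0.63, and for H2-K1 it was -0.07 (-0.46 to 0.32).

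After dual therapy, Nlrc5 was lower than in untreated tumour and the other 9 genes were not called. Nlrc5 scores were 2176, 1937 and 1995, all below the lowest untreated tumour library at 3900, and the log2 fold change was -1.30 ± 0.28 (limma adjusted p = 0.00313). This is 1 of 10 genes, in a comparison in which 10.2% of all genes fell and 12.1% rose. H2-D1 (8841, 5995 and 7288), B2m (23203, 15562 and 16958) and Tapbp (3830, 2753 and 2761) had log2 differences of -0.01, 0.03 and 0.04, with 95% intervals of -0.34 to 0.31, -0.31 to 0.36 and -0.28 to 0.35. H2-K1 had scores of 5578, 3451 and 4501 and Tap1 of 2364, 1393 and 1807. Both overlapped untreated tumour, at -0.28 ± 0.19 (limma adjusted p = 0.301) and -0.41 ± 0.24 (0.23). Psmb8 was at 550, 332 and 376 and Psmb9 at 289, 204 and 157, differences of -0.25 and -0.10, with replicate 1 highest for both. The remaining differences were -0.06 for Tap2 and -0.02 for Psmb10.

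After triple therapy, Nlrc5 and Tap1 were lower than in untreated tumour, 2 of 10 genes in a comparison in which 15% of all genes fell and 17.2% rose. Nlrc5 was at 1129, 1805 and 651, again below every untreated tumour library, with a log2 fold change of -2.19 ± 0.28 (limma adjusted p = 1.76e-05). Tap1 was at 1479, 2142 and 967, and its highest library lay above the lowest untreated one (-0.73 ± 0.24, limma adjusted p = 0.0239). The Tap1 call was lost on leaving out untreated tumour replicate 1 (adjusted p = 0.107) or 3 (0.0834), or triple therapy replicate 1 (0.0564) or 3 (0.167, with a difference of -0.44), and without the mean-variance trend (0.0751) or in a fit of these 6 libraries alone (0.0667). H2-K1, at 4207, 4851 and 3363, differed by -0.39 ± 0.19 (limma adjusted p = 0.115), and Psmb8, at 350, 446 and 278, by -0.47 ± 0.20 (0.0832). B2m, at 19952, 20679 and 16133, differed by 0.07 with a 95% interval of -0.27 to 0.40. H2-D1 was at 6995, 8275 and 5589 (-0.10), Tapbp at 2902, 3647 and 2484 (-0.01) and Psmb9 at 189, 228 and 134 (-0.33). These 3 genes overlapped untreated tumour and were highest in replicate 2, and Tap2 and Psmb10 differed by -0.24 and -0.28 without being called. The dual and triple comparisons share the untreated tumour libraries.

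Marker levels of several cell types moved with treatment. Against untreated tumour, 12.1% of all genes rose and 10.2% fell with dual therapy, and 17.2% rose and 15% fell with triple therapy. Of the 6 pan-leukocyte markers, 0 were called with dual therapy in limma (2 at an unadjusted p under 0.05) and 1 fell with triple therapy. Their sums were 4816, 2837 and 4214 after dual and 3783, 4473 and 2747 after triple therapy, overlapping 4146, 4730 and 6024 in untreated tumour. Of the 16 T and NK cell markers, 0 were called with dual therapy (2 unadjusted) and 3 fell with triple therapy. Their sums were 1412, 974 and 1230 after dual, 1053, 1303 and 642 after triple therapy and 1532, 1653 and 1705 in untreated tumour, where every library was above every treated one. Of the 12 monocyte and macrophage markers, 1 rose with dual therapy, and 1 rose and 3 fell with triple therapy, with mean sums of 6844 in both untreated tumour and dual therapy and 8146 after triple therapy. The 10 proliferation markers fell in both treated groups, from sums of 6204 to 13801 in untreated tumour to 1097 to 1811 and 1546 to 1940. Neutrophil markers fell for 2 of 4 with dual and 3 of 4 with triple therapy. Endothelial markers rose for 7 of 15 in both, with 1 falling after triple therapy, and pericyte markers rose for 6 and 7 of 8. Neuron markers rose for 7 and 8 of 8, from a mean sum of 2634 to 5404 and 7632, and astrocyte markers for 3 and 4 of 7. Of 10 microglia markers, 2 fell with dual therapy, and 2 rose and 1 fell with triple therapy. Of 8 dendritic cell markers, 1 rose with dual therapy, and 1 rose and 1 fell with triple therapy. Of 6 B cell markers, 1 fell with dual therapy and 0 were called with triple therapy. None of 7 oligodendrocyte markers was called in either comparison. The part of these markers in the Nlrc5 and Tap1 results was not tested.

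Library by library, leukocyte sums and the 10 genes did not follow 1 pattern in all groups. The library with the lowest pan-leukocyte sum was lowest for 8 of the 10 genes in sham (replicate 3). It was lowest for 8 after dual therapy (replicate 2) and for 9 after triple therapy (replicate 3). In untreated tumour the lowest sum was in replicate 1, which was highest for 5 genes and lowest for none. In contralateral tissue it was in replicate 2, lowest for 3.

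**Figure D3:**
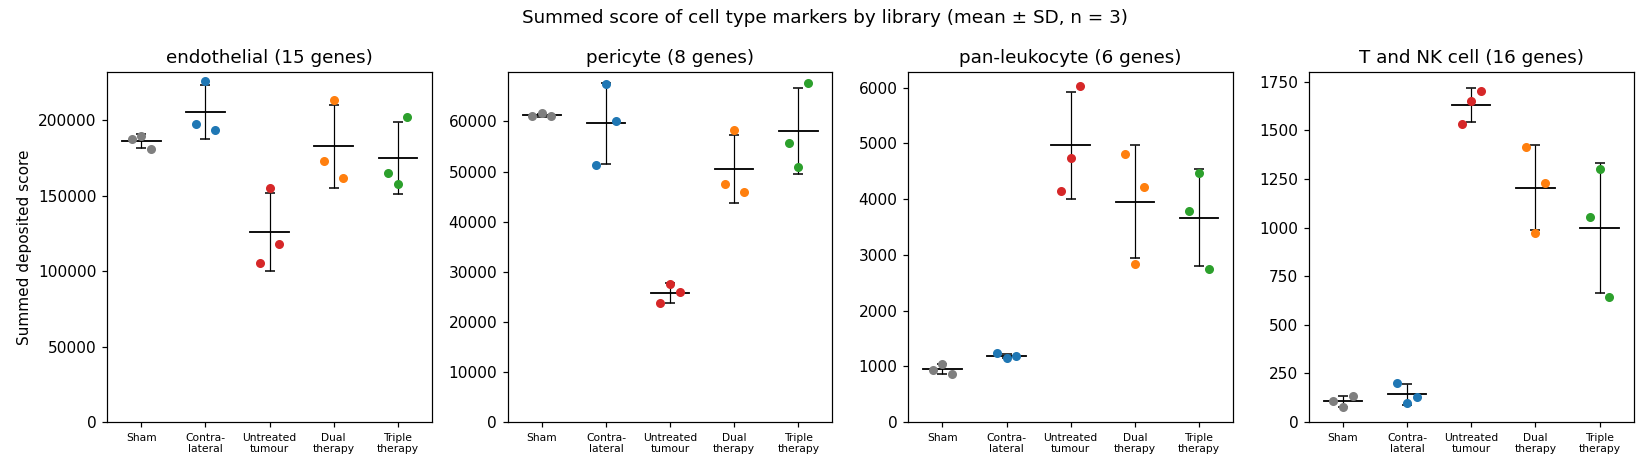
Summed deposited score (vertical axes, linear from 0) of endothelial (15 genes), pericyte (8), pan-leukocyte (6) and T and NK cell (16) markers by group; points are libraries, long bars means and whiskers SD (n = 3). Leukocyte sums are 1148 to 1231 in contralateral tissue and 4146 to 6024 in untreated tumour, where pericyte sums are lowest.

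Scaling each library to equal endothelial marker levels changed the size of these differences. It moved the median of all genes by 0.50 for untreated tumour against contralateral tissue (0.40 against sham), by -0.40 for dual and by -0.32 for triple therapy against untreated tumour. Of all called genes, 49.6% rose in untreated tumour against contralateral tissue and 84.7% did so under this scaling (against sham 49.9% and 76.6%). For dual therapy against untreated tumour the share was 54.3% and 8.33%, and for triple therapy 53.5% and 22.8%. The 10 genes stayed higher in untreated tumour than in contralateral and sham tissue under this scaling, and the differences from contralateral tissue of Tap2, Tapbp and Psmb10 became 1.27, 1.25 and 1.28. Nlrc5 stayed lower after dual (-1.70, limma adjusted p = 0.00203) and triple therapy (-2.50, 6.08e-05). Under the same scaling H2-K1 (-0.71, adjusted p = 0.0429) and Psmb8 (-0.78, 0.0353) were called lower after triple therapy, and the differences of B2m with both therapies, and that of Tapbp with dual therapy, turned from positive to negative without being called.

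Between triple and dual therapy, 0 of the 10 genes were called, where 0.869% of all genes were. Nlrc5 did not overlap between the groups and had the largest difference of the 10, -0.89 ± 0.28, with an unadjusted p of 0.00526 and a limma adjusted p of 0.143. It was the 1 gene with an unadjusted p below 0.05. Without triple therapy replicate 2, the highest of its group, the difference was -1.25 and was called (limma adjusted p = 0.0433), and without replicate 3, the lowest, it was -0.51 (0.492). The other 9 differences ran from -0.32 for Tap1 to 0.04 for B2m, and all these groups overlapped.

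Both treated groups remained above contralateral tissue. After dual therapy 10 of 10 genes were called higher, where 6.91% of all genes rose, and after triple therapy 9 of 10, where 4.15% rose. Of all called genes 54% rose after dual and 83.4% after triple therapy, and 75.5% and 96.3% with equal endothelial markers. Nlrc5 had log2 differences of 3.07 ± 0.28 after dual (limma adjusted p = 2.18e-06) and 2.18 ± 0.28 after triple therapy (7.56e-05). Tap1 was at 2.02 and 1.70, H2-K1 at 1.5 and 1.39, Psmb9 at 1.66 and 1.43, Psmb8 at 1.31 and 1.09, H2-D1 at 1.16 and 1.07 and B2m at 1.10 and 1.14. Psmb10 scores were 342, 345 and 210 after dual and 216, 301 and 220 after triple therapy, with differences of 0.77 ± 0.20 (limma adjusted p = 0.0168) and 0.50 ± 0.20 (0.212). The Psmb10 call after dual therapy was lost without dual therapy replicate 1 (adjusted p = 0.0703) or 2 (0.0815) or contralateral replicate 3 (0.0644), and without untreated tumour replicate 2 and dual therapy replicate 2 together (0.06). Tap2 had 987, 756 and 789 after dual and 701, 921 and 634 after triple therapy, and its triple therapy difference of 0.53 ± 0.15 lay near the threshold (0.0478). That call was lost without any 1 of the 3 contralateral libraries, without triple therapy replicate 1 or 2, with the replicate number as a block (0.0517), without the filter on low values (0.0529), with quantile normalisation (0.0807), with equal endothelial markers (0.0873) and without the trend (0.134). These 2 comparisons share the contralateral libraries.

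**Figure D4:**
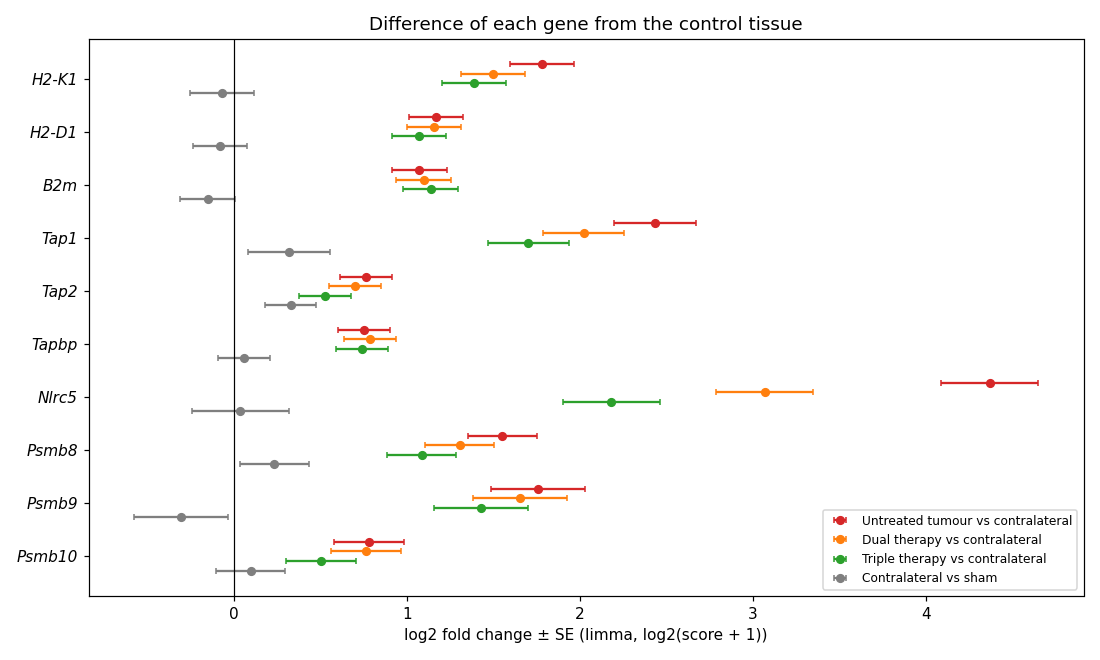
Log2 fold change of each of the 10 genes (horizontal axis, log2(score + 1) scale, zero marked), as points with whiskers of 1 SE from the limma fit, for untreated tumour, dual and triple therapy against contralateral tissue and for contralateral against sham tissue. Nlrc5 goes from 4.37 in untreated tumour to 3.07 after dual and 2.18 after triple therapy, while the 3 points of B2m lie between 1.07 and 1.14.

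Nlrc5 moved differently from the other 9 genes, a pattern that was noticed in the values and is given without a test. Its log2 score minus the mean log2 score of the other 9 was -1.13, -1.89 and -1.46 in sham and -1.29, -1.79 and -1.43 in contralateral tissue. In untreated tumour this difference was 1.64, 1.43 and 1.51, after dual therapy 0.11, 0.46 and 0.47 and after triple therapy -0.34, 0.02 and -0.83. The tumour-region groups did not overlap each other, and all lay above both control tissues. The ratio of H2-K1 to H2-D1 scores also differed: it was 0.441 to 0.530 in the 6 control libraries, 0.745, 0.702 and 0.749 in untreated tumour, 0.631, 0.576 and 0.618 after dual and 0.601, 0.586 and 0.602 after triple therapy. The ratios of the treated groups lay between those of untreated tumour and control tissue and overlapped each other.

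**Figure D5:**
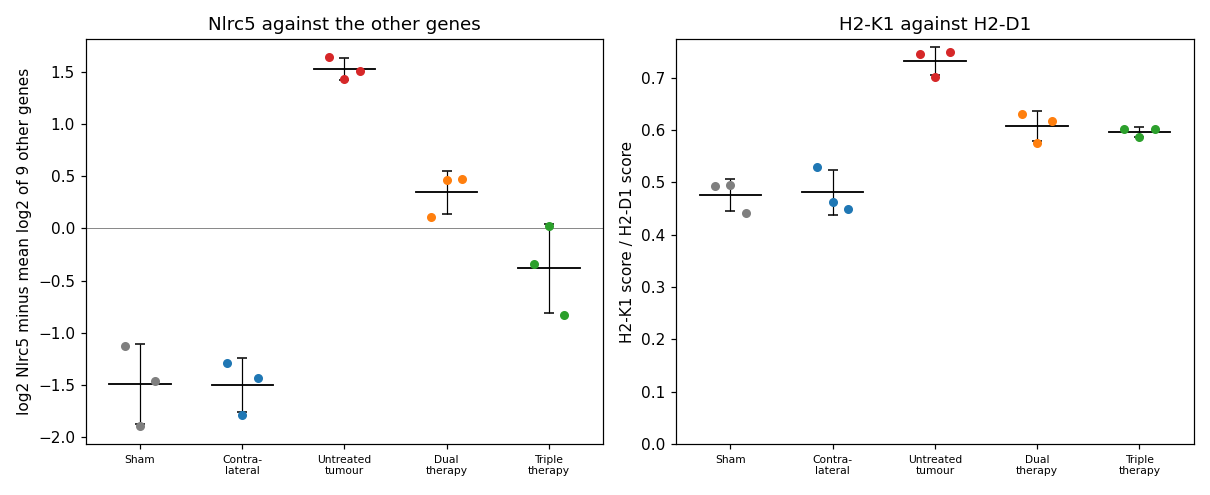
Left, log2 score of Nlrc5 minus the mean log2 score of the other 9 genes in each library; right, H2-K1 score divided by H2-D1 score (linear axis from 0); points are libraries, long bars means and whiskers SD (n = 3). Untreated tumour is highest in both panels, and the Nlrc5 difference averages 1.53 there, 0.34 after dual and -0.39 after triple therapy.

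Within groups the genes tended to be high or low in the same libraries. Untreated tumour replicate 2, which had the highest share of mitochondrial ribosomal RNA (33.2%), was lowest for 10 of 10 genes. Dual therapy replicate 1 was highest for 9, triple therapy replicate 2 highest for 10 and sham replicate 1 highest for 9. Over the 15 libraries the Pearson correlation of log2 scores between pairs of the 10 genes ran from 0.828 (B2m and Psmb10) to 0.99 (Tap1 and Psmb8), with a median of 0.949 over 45 pairs. These points share libraries and group structure, so the correlations describe the samples and carry no test. Outside the 10 genes, genes with a profile most like their mean included H2-T22 (r = 0.992), Irgm1 (0.988), Igtp (0.987), Tgtp1 (0.985) and Ifi47 (0.984). Irgm1 and Igtp encode interferon-inducible GTPases. Irgm1 had mean scores of 824 in contralateral tissue, 4732 in untreated tumour, 3574 after dual and 2979 after triple therapy. For Nlrc5 alone, a search added after its values were seen, the most similar genes were Gpr171 (0.986), F830016B08Rik (0.982) and Mlkl (0.982), the last an effector of necroptosis. Next came Sec16b (0.98), Stat2 (0.979) and Apobec3 (0.978). The other 9 genes ran from 0.841 for Psmb10 to 0.966 for Tap1, and the proliferation marker Mki67 was at 0.945.

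Other genes of the pathway were followed in 9 lists, whose calls in untreated tumour against contralateral tissue are read beside the same 21.1% that rose among all genes (21.4% fell). Of the other class I heavy chain genes, 13 of 21 were tested, 12 rose and none fell, with a median log2 fold change of 2.32. Mr1 was the 1 not called. The Qa region gene H2-Q4 had mean scores of 477 ± 70.7 (SD, n = 3) in contralateral tissue and 1710 ± 350.6 in untreated tumour (1.83, limma adjusted p = 6.09e-07). H2-Q7 went from 142 to 1041 (2.93, adjusted p = 9.5e-07), and H2-T22 from 332 to 973 (1.54, 1.76e-06). H2-M2 was at 0 in all sham libraries and at 0, 0 and 1 in contralateral tissue, and at 85, 83 and 59 in untreated tumour. After treatment 2 of the 13 changed with dual therapy and 3 with triple therapy against untreated tumour, where 22.3% and 32.2% of all genes were called. H2-T10 fell in both (-1.59 and -1.68) and H2-T24 rose in both (0.54 and 0.39), and H2-Q4 fell with triple therapy (-0.58, limma adjusted p = 0.0246). H2-T10 and H2-T24 are named after their values were seen.

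Of 11 genes of peptide loading and trimming, 8 rose in untreated tumour and none fell (median 0.48). They include the aminopeptidase gene Lap3 (0.76, limma adjusted p = 0.000598), Pdia3, which encodes the ERp57 partner of tapasin (0.55, 0.000998), the tapasin-like editor gene Tapbpl (0.75, 0.00157) and Erap1, which encodes the aminopeptidase that trims peptides in the endoplasmic reticulum (0.48, 0.00254). Against untreated tumour, 2 of these 11 loading and trimming genes fell with dual and 1 with triple therapy, where 10.2% and 15% of all genes fell. Of 9 genes of proteasome activators and assembly, 4 rose and 1 fell in untreated tumour. Psme1 and Psme2 encode the PA28 activator that caps the immunoproteasome. Psme1 went from 2375 to 3883 (0.71, limma adjusted p = 1.28e-05) and Psme2 from 595 to 1255 (1.08, 7.88e-07), though 28.27% of the 50-base windows of Psme2 also occur in Psme2b. Psme3 and Psmg4 also rose (0.46 and 1.21), and Psmg3, named after its values were seen, fell from a mean of 14 to 3.3. The 11 structural subunits of the proteasome core had 5 genes that rose and none that fell (median 0.37), among them Psma7 (0.73), Psma4 (0.60), Psma5 (0.61) and Psma3 (0.37). With triple therapy 4 of these 11 fell against untreated tumour, Psma7 (-0.68), Psma4 (-0.47), Psma5 (-0.47) and Psma3 (-0.49), in a comparison in which 15% of all genes fell. Of the activator and assembly genes 2 fell and 1 rose with triple therapy: Psme2 (-0.46, limma adjusted p = 0.00503), Psmg4 (-1.07, 0.00803) and Psmg3 (1.54, 0.0325). With dual therapy 0 of the 11 core genes and 0 of the 9 activator and assembly genes were called in limma, where 22.3% of all genes were. In each list 1 gene was at an unadjusted p under 0.05.

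Upstream of these genes, 4 of 8 tested interferon ligand, receptor and kinase genes rose in untreated tumour and none fell. Ifng, the gene of interferon-gamma, was at 0 in all sham libraries, at 4, 0 and 0 in contralateral tissue and at 9, 21 and 39 in untreated tumour. It was at 25, 8 and 21 after dual and 22, 33 and 1 after triple therapy, and the 3 tumour-region groups overlapped. Ifngr2, a chain of its receptor, went from 233 to 419 (0.85, limma adjusted p = 0.000159) and fell with dual (-0.54, 0.0138) and triple therapy (-0.43, 0.0324) against untreated tumour. The kinase genes Tyk2 and Jak2 rose by 0.57 and 0.37. Of 17 transcription factor genes of the class I promoters, 6 rose and 1 fell in untreated tumour (median 0.24). Among them, Stat2 (1.89, limma adjusted p = 1.34e-07), Irf7 (1.76, 1.02e-07), Irf8 (3.07, 1.47e-06) and Irf1 (1.56, 8.13e-06) were higher, and Irf9 rose by 0.50. Stat2 fell with dual (-0.52, limma adjusted p = 0.0325) and triple therapy (-0.75, 0.00249), and Irf1, Irf7 and Irf8 were not called in either, with differences of -0.28, 0.36 and -0.33 with dual and -0.41, 0.05 and -0.78 with triple therapy. Creb1, named after its values were seen, fell in untreated tumour (-0.48) and was higher with dual (0.41) and triple therapy (0.36) than in untreated tumour.

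Class II genes present antigen from outside the cell and are made mainly by specialised antigen-presenting cells, and 8 of the 10 rose in untreated tumour (median 3.46). H2-Ab1 went from 181, 104 and 91 in contralateral tissue to 2060, 1141 and 2147 in untreated tumour, 2095, 831 and 2011 after dual and 2208, 2294 and 1154 after triple therapy. Ciita, the class II counterpart of Nlrc5, had 33, 32 and 27 in contralateral tissue and 403, 202 and 429 in untreated tumour (3.38, limma adjusted p = 1.17e-06). It had 238, 168 and 234 after dual and 199, 356 and 108 after triple therapy, differences of -0.63 (adjusted p = 0.24) and -0.73 (0.14) against untreated tumour that were not called. None of the 10 class II genes was called between treated and untreated tumour, where 22.3% of all genes were called with dual and 32.2% with triple therapy. Of 7 tested genes listed as class I readers (CD8 chains, NK cell receptors and Pirb), 6 rose in untreated tumour. Whether the product of each gene binds class I molecules was not tested. Klrc1, which encodes an NKG2 receptor chain, was at 0, 1 and 0 in contralateral tissue and 54, 66 and 66 in untreated tumour, and Pirb was at 21, 10 and 10 and at 75, 114 and 173. Klra4, a Ly49 receptor gene, was the 1 of the 7 called with triple therapy (-2.11, limma adjusted p = 0.0465), at 26, 49 and 43 in untreated tumour and 6, 20 and 4 after triple therapy. This 1 of 7 stands beside the same 32.2% of all genes.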

How the data were processed

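RNA of brain microvessels was measured in 15 libraries, 5 groups of 3. Per the labels' protocols, a Qiagen micro kit with DNase digestion gave the RNA, of which 100 ng was the input of a Clontech stranded total RNA kit. The submitters' processing notes name STAR 2.4.0a, featureCounts 1.4.5-p1, DESeq2 and the build GRCm38. The authors deposited 1 normalised score for each gene and library. Its whole numbers fit a read number times a library's own factor, rounded, so they are no raw counts. The worth of 1 read, 0.656 to 1.86 score units, was estimated here from each library's low values.

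Here scores became log2(score + 1). A gene was tested where 3 or more libraries reached a score of 10 (19668, with 7506 left out). The fit of all 15 libraries by group used a mean-variance trend (limma 3.58.1, R 4.3.3) and was tested on simulated data. Fold changes on this scale understate those of low genes. P-values were adjusted by Benjamini-Hochberg over all genes tested in each of 8 comparisons, and a gene was called, and said to have risen or fallen, below 0.05. Ratios of scores were tested by exact permutation. Exon lengths and shared sequence came from GENCODE M21, whose transcript models may differ from those the authors counted.

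The members, lists and tests were chosen with earlier results of these data known. Beside the 10 genes and Psmb5, Psmb6 and Psmb7, the text names up to 4 genes of a function list with the smallest adjusted p in untreated tumour against contralateral tissue, and genes among the 6 most like the mean of the 10, of which 1 is not reported here. Alternatives were pseudocount 10, no filter, quantile normalisation, equal endothelial markers, a replicate block, no trend, only the libraries compared, leaving out each replicate, and leaving out untreated tumour replicate 2 and dual therapy replicate 2, which stood apart in an earlier analysis.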

Additional observations from a re-analysis of the deposited data

How the results depend on the processing

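The rise of all 10 genes in untreated tumour against contralateral and sham tissue, the call of Nlrc5 alone with dual therapy and the count of 0 between contralateral and sham held under every alternative run. Over all alternatives, 1092 fold changes of the 10 genes stayed called or stayed not called, 20 lost their call and 8 gained one. Some differences that were not called changed sign. Against untreated tumour these were 17 of 140 values with dual and 9 of 140 with triple therapy. Between triple and dual therapy they were 14 of 140, and between contralateral and sham tissue 8 of 140. In the other comparisons no sign changed. The count of genes called with triple therapy against untreated tumour, 2, became 4 with equal endothelial markers and 4 without the 2 libraries that stood apart, 1 without the mean-variance trend and 1 with only the libraries compared, and ran from 1 to 3 on leaving out each replicate. H2-K1 was also called with quantile normalisation (-0.63, limma adjusted p = 0.0259) and without untreated tumour replicate 2 (0.0331). Between triple and dual therapy the count of 0 ran from 0 to 1 (Nlrc5, without triple therapy replicate 2). Against contralateral tissue the counts ran from 9 to 10 with dual and 8 to 9 with triple therapy.

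Leaving out each replicate, the log2 ratio of Psmb8 to Psmb5 differed from untreated tumour by -0.204 to 0.274 with dual and -0.385 to 0.053 with triple therapy. For Psmb9 to Psmb6 the ranges were -0.241 to 0.235 and -0.468 to 0.125, and -0.446 to 0.147 between triple and dual therapy. For Psmb10 to Psmb7 with triple therapy it was -0.285 to 0.237. The ratios against contralateral tissue stayed positive, at 0.859 to 1.30, 1.46 to 1.99 and 0.296 to 0.48. The causes of these changes were not tested.

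Replicate numbers are shared between groups with no stated pairing: 1 of 30 same-numbered pairs had deviations correlated above 0.1 (median 0.012), and 6 of 15 libraries correlated best with their own number. With the replicate number as a block, 10, 10, 0, 1, 2, 0, 10 and 8 genes were called (untreated tumour against contralateral and sham, contralateral against sham, dual and triple against untreated tumour, triple against dual, and dual and triple against contralateral). Counts over all genes depended more on the setting: contralateral against sham had 85, and 8 without the trend, 26 with equal endothelial markers, 210 without the 2 libraries, 736 with only the libraries compared, and 22 to 52 without sham replicate 1, 2 or 3 or contralateral replicate 1 or 2. Triple against dual therapy had 171, and 14, 0, 92 and 8 under the same settings and 0 to 274 on leaving out each replicate. Dual therapy against untreated tumour had 4377, and 2209 with only the libraries compared and 2798 without untreated tumour replicate 1. Dual therapy against contralateral tissue had 2518, and 1384 with equal endothelial markers and 1588 without contralateral replicate 3. Triple therapy against contralateral tissue had 978, and 594 without triple therapy replicate 2. Groups of 3 libraries limit what can be called.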
